A study of Mus musculus with 10 samples.

Results

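The array described here is the 1 of the series' 10 arrays whose title names no strain: it reads 12Wcombexp, a word the labels do not explain. The titles of the other 9 arrays name a strain and are called the strain arrays below: FVBn for 1 array (B), and ILn, LP, MOLF and NZB for a pair of arrays each (A and B). All 10 arrays carry the same labels: total RNA of a mammary tumour in the mammary gland of an adult female mouse of strain FVB/Nj, aged 90 days. Each RNA was labelled with biotin and hybridised to an Affymetrix array of oligonucleotide probe sets. The series concerns mice with the MMTV-PyMT transgene, a viral promoter active in mammary epithelium joined to the oncogene middle T of polyomavirus, and no label gives the unnamed array another genotype. The titles of the strain arrays call the RNA a mix without saying what was mixed. The title of the unnamed array uses neither that word nor the word tumour. The word tumour is also missing from the titles of ILn A and NZB B. Whether A and B are different animals is not stated. The question is which transcripts lay outside the range of all 9 strain arrays on the unnamed array. With 1 array on one side there is no replicate and no test, and every comparison below is a description of these 10 arrays.

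As background, the mouse mammary gland is a tree of epithelial ducts set in a pad of fat. The ducts have an inner layer of luminal cells, which make the milk proteins in pregnancy and lactation, and an outer layer of contractile myoepithelial cells. The pad around them holds adipocytes, fibroblasts with their collagen matrix, blood vessels and immune cells, it encloses lymph nodes, and it lies against skin and skeletal muscle. Adipocytes store triglyceride under the control of the nuclear receptor Pparg and secrete adiponectin and resistin. Tumours driven by middle T grow from the epithelium and replace the ducts and the fat with dividing epithelial cells.

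The genes that carry the comparison are shown first by their promoters: Adipoq, the adiponectin gene, Myh4, the myosin heavy chain of fast muscle fibres, and Wap, the whey acidic protein gene of secretory mammary epithelium. The first pair was far higher on the unnamed array than on the median strain array, and the third was at the floor there and high on all 9 strain arrays. Each sequence is the 250 bases before the transcription start in RefSeq's annotation of GRCm38.p6, written 5′ to 3′ on the gene's strand: chr16:23146286-23146535 on the plus strand for Adipoq, chr11:67237562-67237811 on the plus strand for Myh4, and chr11:6638650-6638899 on the minus strand for Wap. Capitals mark every match on either strand to CCAAT (the CCAAT box), TATAAA (the TATA box) or CAGCTG (an E-box).
Adipoq: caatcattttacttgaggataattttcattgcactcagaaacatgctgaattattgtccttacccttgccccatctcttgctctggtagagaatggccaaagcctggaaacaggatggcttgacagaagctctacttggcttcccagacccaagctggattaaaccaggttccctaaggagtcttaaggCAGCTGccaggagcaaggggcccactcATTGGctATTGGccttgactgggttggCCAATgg
Myh4: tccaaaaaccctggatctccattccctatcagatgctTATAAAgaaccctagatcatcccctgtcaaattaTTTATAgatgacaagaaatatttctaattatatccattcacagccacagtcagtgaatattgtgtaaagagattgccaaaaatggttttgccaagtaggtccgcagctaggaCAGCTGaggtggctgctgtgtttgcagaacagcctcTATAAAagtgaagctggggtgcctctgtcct
Wap: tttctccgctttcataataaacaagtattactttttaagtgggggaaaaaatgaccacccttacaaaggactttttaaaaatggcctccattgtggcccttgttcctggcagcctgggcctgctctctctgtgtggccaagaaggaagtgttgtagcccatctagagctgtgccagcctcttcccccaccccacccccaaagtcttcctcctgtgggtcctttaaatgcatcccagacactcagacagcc
The Adipoq window held 3 matches to CCAAT and 1 to CAGCTG, the Myh4 window held 3 to TATAAA and 1 to CAGCTG, and the Wap window held none of the 3 motifs. Of all 32851 windows of this length, 33.9% held CCAAT, 12.4% TATAAA and 13.0% CAGCTG on either strand. These motifs were chosen after the sequences had been read, and a match is a description of the letters only.

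The deposited intensities had a mean of 150.1, without the lowest and highest 2% of probe sets, on 9 of the arrays, the unnamed array among them, and of 500.2 on ILn A, so all arrays were brought to the distribution of the strain arrays by quantile normalization. Values below are log2 scaled intensities with a floor of 4.75, the 30th percentile, and a probe set at the floor has only a bound. On RNA quality the unnamed array lay within the strain arrays. Its log2 ratio of the 3′ to the 5′ probe set was 0.41 for actin (strain arrays 0.22 to 1.11) and −0.02 for Gapdh (−0.41 to 0.37). Its correlation over 10631 probe sets was 0.779 with NZB B, 0.788 with MOLF A and 0.855 to 0.876 with the other 7, which correlated at 0.937 to 0.977 with each other. MOLF A and NZB B also stood apart from those 7, and the lists are also counted without them below. The hybridisation controls averaged 1.83 log2 units over the trimmed mean on it (strain arrays 0.72 to 3.13). The title of the unnamed array carries a date that no other title shares, so the date and the array cannot be told apart.

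On the unnamed array 437 of 10631 probe sets (4.11%) lay at least 1 log2 unit, or 2-fold, above all 9 strain arrays, and 182 (1.71%) lay at least that far below them. The next array in this respect was NZB B, the highest of the 10 by 1 unit on 116 probe sets and the lowest on 154. MOLF A was the highest on 42 and the lowest on 63, and FVBn B was the highest on 29. Counted by any amount, the unnamed array was the highest on 1813 probe sets and the lowest on 1714, against 1980 and 1547 on NZB B and 1476 and 1219 on MOLF A. The other 7 strain arrays were the highest on at most 976 and the lowest on at most 636. Without MOLF A and NZB B the counts were 539 above and 306 below. All 9 strain arrays were at the floor for 45 of the 437, and the unnamed array was at the floor for 38 of the 182. The margin beyond the nearest strain array was 1.007 for Cd8a and −1.002 for Cmas, just inside the limit, and 0.999 for Prnp and −0.991 for Blnk, just outside it.

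**Figure D1:**
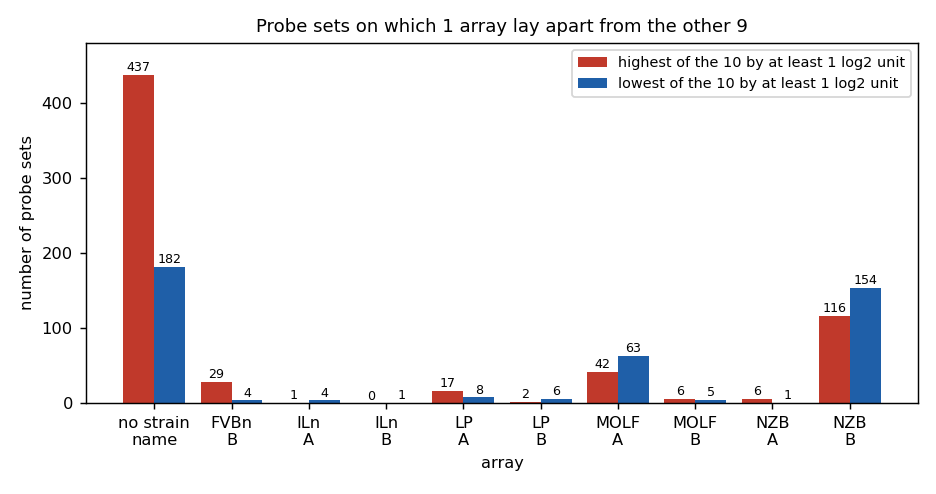
Number of probe sets (vertical axis) on which each of the 10 arrays was the highest (red) or the lowest (blue) of all by at least 1 log2 unit. The array without a strain name has 437 and 182, and no other array has more than 154 of either kind.

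**Figure D2:**
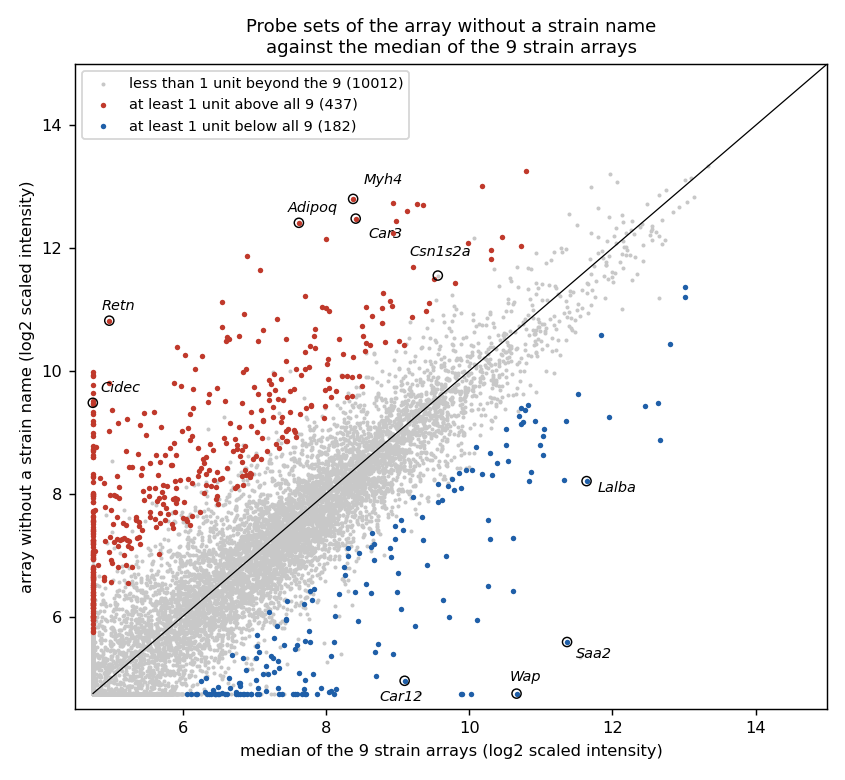
Each point is 1 of 10631 probe sets, with the median of the 9 strain arrays on the horizontal axis and the array without a strain name on the vertical axis, both as log2 scaled intensity; the line marks equal values. Red points lie at least 1 unit above all 9 strain arrays and blue points at least 1 unit below them, and the circled probe sets are those of genes named in the text.

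Counted with 1 probe set for each of 8251 genes, 318 genes (3.85%) were at least 1 log2 unit above all 9 strain arrays and 142 (1.72%) at least 1 below. By any amount, 1391 genes (16.9%) were above and 1327 (16.1%) below, and the median difference from the strain arrays over all genes was 0. These shares are the background for the gene lists that follow, whose members were counted whether or not they were above the floor. In bulk RNA of this kind, more cells of a type and more RNA for each such cell cannot be told apart.

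Adipocyte genes were the group with the largest share beyond the strain arrays among the 25 lists. Of 24 adipocyte genes 19 were at least 1 log2 unit above all 9 strain arrays, against 3.85% of all genes, none was below, and 23 were above by some amount. The median over the list was 2.61 log2 units above the strain arrays' median, while the strain arrays themselves ranged from −0.12 to 0.10. The values at the floor make that median an understatement. Adipoq, the hormone adiponectin, was at 12.41 on the unnamed array, and its lowest, median and highest values on the strain arrays were 6.97, 7.62 and 8.40. The unnamed array lay 16.2-fold above the highest strain array, LP A. Retn, the hormone resistin, was at 10.82 against 4.75, 4.98 and 6.11, which is 26.1-fold above the highest strain array. Rbp4, the retinol carrier of plasma that fat cells also secrete, was at 9.98 and the strain arrays reached 5.32, with 7 of the 9 at the floor.

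The genes of fat storage and release went the same way. Cidec, a protein of the lipid droplet surface, was at 9.48 with all 9 strain arrays at the floor, at least 26.6-fold higher. Pparg, the nuclear receptor that directs fat cell differentiation, was at 7.40 and at least 6.30-fold higher, and Cd36, the fatty acid transporter, was at 7.19 and at least 5.45-fold higher, again with all 9 at the floor. Those 3 genes were above the floor on the unnamed array only. Lpl, the lipase that frees fatty acids from lipoproteins, was at 11.64 against 6.04, 7.09 and 7.57, and its second probe set was also beyond the limit. Lipe, the hormone-sensitive lipase, was at 10.48 against a highest strain value of 7.24. Slc2a4, the insulin-regulated glucose transporter, was at 9.22 against a highest of 6.70, though another probe set of the gene was not beyond the limit. Plin4, a coat protein of lipid droplets that is on no list, was at 9.78, and the highest strain array was at 5.54.

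The exceptions among adipocyte genes were moderate. Fabp4, the fatty acid binding protein of adipocytes, was at 8.40 against 5.90, 6.64 and 7.44, above all 9 strain arrays but 0.96 above the highest of them and so inside the limit. Scd1, a desaturase, was at 13.20 against a highest of 12.37. Lep, the hormone leptin, was at 9.42 against 7.67, 8.47 and 9.52 and was the only gene of the 24 within the range. Ucp1 and Cidea are not among these exceptions, since both passed the limit. Ucp1, the uncoupling protein of brown fat, was at 7.28 against a highest of 6.18. Cidea, which is also prominent in brown fat, was at 10.53 against 8.04.

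Genes of lipid synthesis were split. Of 27 genes of cholesterol and fatty acid synthesis 4 were at least 1 unit above all 9 (background 3.85%), and all 4 belong to the making of fatty acids. Fasn, the fatty acid synthase, was at 12.70 against 8.89, 9.36 and 9.88, and Elovl6, which lengthens its products, was at 10.48 against 6.32, 7.05 and 7.49 on the brighter of 2 probe sets that both passed the limit. Me1, the malic enzyme that supplies NADPH, was 3.74-fold and Thrsp, a regulator of lipogenesis, 2.89-fold above the highest strain array. Of the sterol branch none was above by that much, and Dhcr7, the last enzyme of cholesterol synthesis, was at 5.97 against a lowest strain value of 6.98. The fatty acid side did not all go up. Srebf1, the transcription factor of the fatty acid genes, was below all 9, at 10.58 against a lowest of 11.67. With each array centred on its median Dhcr7 and Srebf1 came inside the limit, with margins of −0.88 and −0.56. With trimmed mean scaling Srebf1 was inside it as well, with a margin of −0.81.

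Fatty acid oxidation was higher too. Of 23 genes 11 were at least 1 unit above all 9 (background 3.85%), none was below, and the median was 1.28. Lpl, described above, is on this list as well. Hadhb, the β subunit of the mitochondrial trifunctional protein, was at 11.13 against 7.98, 8.89 and 9.10. Decr1, the mitochondrial dienoyl-CoA reductase, was at 8.47 against a highest of 6.10, and Fabp3, the fatty acid binding protein of heart and muscle, was at 7.25 against 5.58. Of 61 respiratory chain genes 3 passed the limit, but 45 were above all 9 by some amount, against 16.9% of all genes, with a median of 0.58. The 3 were Cox7a1 (8.69 against a highest of 6.09) and Cox8b (10.03 against 8.41), both cytochrome oxidase subunits of heart and skeletal muscle, and Sdhb, the iron-sulphur subunit of succinate dehydrogenase (10.42 against 9.37). Cytosolic ribosome genes did not stand apart, with 0 of 30 past the limit either way and a median of −0.07. Rpl13a, a protein of the large subunit, was at 8.24 and the lowest strain array at 9.12, and Rps13, a protein of the small subunit, was at 6.59 within a range of 4.75 to 7.93.

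Skeletal muscle genes made the list with the highest median, 3.02 log2 units. Of 32 genes 25 were at least 1 unit above all 9 strain arrays (background 3.85%), 30 were above by some amount and none was below. Muscle genes also varied more among the strain arrays than adipocyte genes did, with list medians from −0.86 on FVBn B to 1.42 on LP A. The standard deviation of a gene over the strain arrays had a median of 1.04 for muscle genes. It was 0.44 for adipocyte genes and 0.32 for all genes. Myh4 was at 12.80 on the unnamed array and at 4.92, 8.38 and 11.04 on the lowest, median and highest strain arrays, so the strain arrays were spread widely and the unnamed array lay 1.76 units above the highest. Its second probe set lay within the range. Acta1, skeletal muscle actin, was at 13.02 against 7.78, 10.17 and 11.61. The fast myosin light chain Myl1 was at 12.24 against 6.69, 8.94 and 10.17, and the muscle creatine kinase Ckm was at 9.71 against 4.75, 6.14 and 7.95 on its brightest probe set.

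The muscle genes covered both fibre types and the calcium machinery. Ryr1, the calcium release channel, was at 9.75 with a highest strain value of 7.57, and Atp2a1, the calcium pump of fast fibres, was at 12.44 with a highest of 10.87. Genes of slow fibres were above the strain arrays too: Myl2 was at 8.94 against a highest of 6.24 and Tnni1 at 8.62 against 7.29. Tnnc1, the slow troponin C, which is on no list, was at 7.63 with all 9 strain arrays at the floor. Pgam2, the muscle phosphoglycerate mutase, was at 9.81 against 7.65. Car3, the carbonic anhydrase of muscle and fat, is on both lists and was at 12.48 against 6.68, 8.42 and 9.05. Its strain values did not overlap with the unnamed array, which lay 10.8-fold above the highest. Mb, myoglobin, was above all 9 by 0.85, and Tnnt1 and Myh2 were not above them, Myh2 being at the floor on all 10 arrays.

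**Figure D3:**
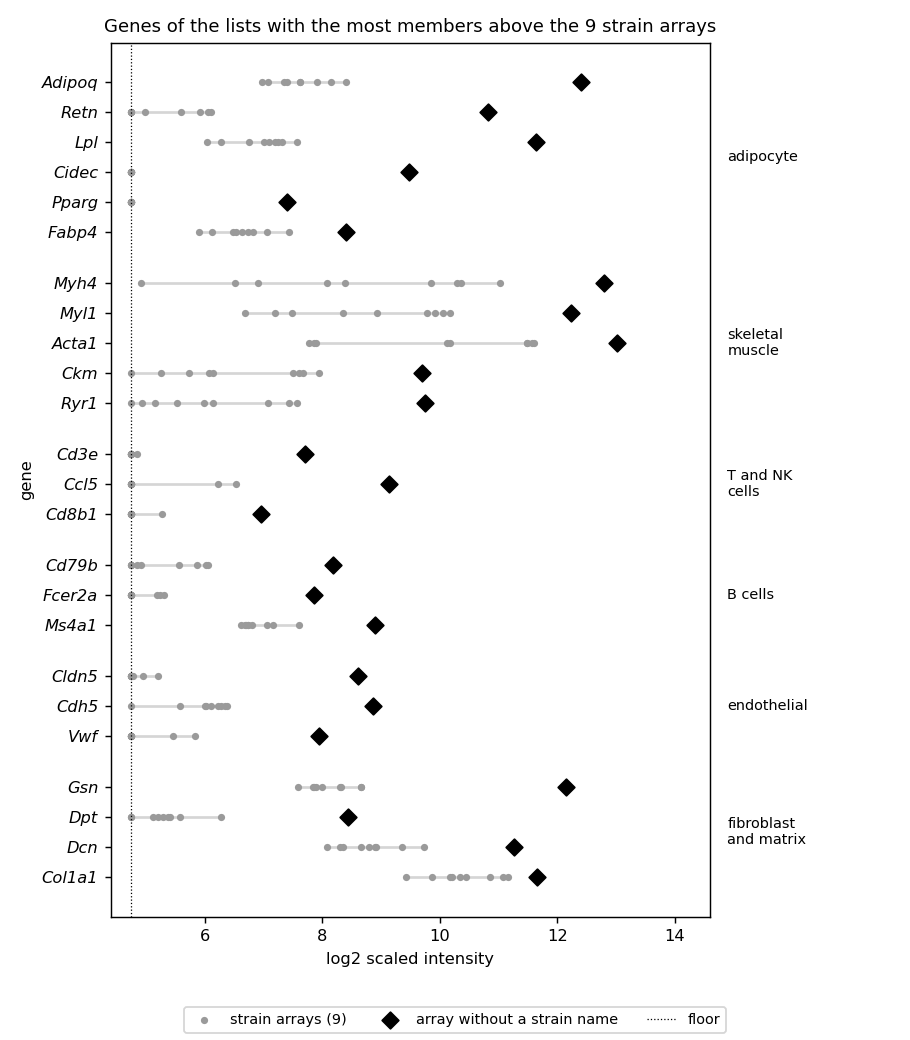
Log2 scaled intensity (horizontal axis) of 24 genes on the array without a strain name (black diamonds) and on each of the 9 strain arrays (grey points, with their range as a grey line); the dotted line is the floor. Muscle genes are spread more widely on the strain arrays than adipocyte genes, of which Cidec and Pparg are at the floor on all 9. The diamond lies to the right of all grey points for each gene shown, by under 1 unit for Fabp4 and Col1a1.

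Lymphocyte genes were mostly near the floor on the strain arrays and measurable on the unnamed array. Of 21 T and NK cell genes 12 were at least 1 unit above all 9 (background 3.85%), none was below, and the median was 1.69. The number was 9 with trimmed mean scaling and 8 among genes above the floor on at least 2 strain arrays. Cd3e, a chain of the T cell receptor complex, was at 7.71, with 8 strain arrays at the floor and NZB B at 4.85. Cd3d, another chain, was at 6.65 with all 9 at the floor, and its other probe set was at the floor on all 10 arrays. A probe set of Cd3g, a further chain, was at 6.32 within a strain range of 4.75 to 7.26. Cd8b1, the β chain of the CD8 co-receptor, was at 6.95 against a highest of 5.27, and Cd4, the co-receptor of helper cells, was at 7.93, which is 0.30 above the highest. The chemokine Ccl5 was at 9.13 with 7 strain arrays at the floor and a highest of 6.53. Ptprc, the pan-leukocyte antigen CD45, was at 8.05 against 4.75, 5.45 and 6.14 and passed on 2 of its 3 probe sets, the third being at the floor on all 10 arrays. The cytotoxic genes Gzma and Prf1 were at the floor on the unnamed array, and Gzmb was at 5.43 within the strain range.

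Of 18 B cell and immunoglobulin genes 9 were at least 1 unit above all 9 (background 3.85%) and 1 was below, with a median of 1.76. That median was 1.16 with the floor at the 40th percentile and 0.80 with the median over a gene's probe sets. Cd79b, a signalling chain of the B cell receptor, was at 8.18 against 4.75, 4.91 and 6.06. Fcer2a, the CD23 antigen of mature B cells, was at 7.87 against a highest of 5.31, and Ms4a1, the CD20 antigen, was at 8.90 against 7.60. Cxcl13, the chemokine that draws B cells into follicles, was at 7.40 with all 9 at the floor, at least 6.28-fold higher. Ltb, lymphotoxin β, which B and T cells both make, was at 9.62 against a highest of 7.16. Antibody genes differed among themselves. The IgM heavy chain gene, Ighm, lay at 9.86 with the highest strain array at 8.25, while Igha, another heavy chain, and Jchain, the joining chain, were within the strain range. On no list, the heavy chain variable gene Ighv14-2 was at 2.51 above the highest strain array and passed on all 3 of its probe sets, and Irf4, a transcription factor of lymphocytes and plasma cells, was at 6.01 with all 9 at the floor. Xbp1, a transcription factor of secretory cells that plasma cells share with other gland cells, was at 9.18 and the lowest strain array was at 10.69. Of 24 antigen presentation genes 2 passed the limit, the lipid-presenting Cd1d1 (9.67 against a highest of 7.90) and the class II chain H2-Oa (7.16 against 5.83), and 15 were above all 9 by some amount (background 16.9%). Without ILn A 4 passed, and without LP A 3. The class II chain H2-Aa was 0.89 above the highest strain array.

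Macrophage genes did not follow the lymphocyte genes. Of 33 macrophage and myeloid genes 1 was at least 1 unit above all 9 and 1 below, and the median was 0. Without ILn A or without ILn B 2 were above, and without LP A 2 were below. Csf1r, the receptor of the macrophage growth factor, was at 8.36 against 7.70, 8.01 and 8.38, and the complement chain C1qa was at 9.36 against 8.86, 9.26 and 9.92. The gene above was Cd52, at 9.53 against a highest of 7.61, a surface antigen that lymphocytes carry too. The gene below was Arg1, arginase 1, at 6.39 against 8.72, 8.99 and 9.79. Interferon response genes were inside the strain range for the most part, with 1 of 33 above and 1 below by the limit and a median of 0. Without MOLF A 5 were below, and without NZB B 2 were above. Cxcl9, a chemokine induced by interferon γ, was at 6.31 with all 9 at the floor, and Mx2, an antiviral GTPase, was at 4.84 against a lowest of 5.94. Neither passed the limit with the floor at the 40th percentile.

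Vessel genes were higher. Of 22 endothelial genes 12 were at least 1 unit above all 9 (background 3.85%) and 1 was below, with a median of 1.48. Cldn5, the tight junction claudin of endothelium, was at 8.60 against 4.75, 4.75 and 5.20. Cdh5, the endothelial cadherin, was at 8.87 against 4.75, 6.11 and 6.38, and Vwf, von Willebrand factor, was at 7.94 against a highest of 5.84. Aqp1, a water channel, was at 9.13 against 6.68, but its other probe set was above the range by less than the limit. The receptors Kdr and Flt1 lay within the range, at 7.03 and 7.26. The gene below was Notch4, at 7.29 against 9.50, 10.62 and 12.28 on the brighter of its 2 probe sets. The other probe set of Notch4 was above the highest strain array by 0.42, less than the limit, so the direction for this gene depends on the probe set. Some red cell genes were above too, but not the list as a whole. Of 12 erythroid genes 3 were above by the limit (background 3.85%), 8 were within the range and 1 was below by less than the limit. The median was 0.01. Those above were the globin chains Hba-a1 (12.73 against a highest of 10.79) and Hbb-b2 (11.02 against 9.76) and the haem synthesis enzyme Alas2 (7.62 against 6.38). Globin genes have near-identical copies, which the probe sets may not separate.

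Connective tissue genes were divided by gene. Of 44 fibroblast and matrix genes 10 were at least 1 unit above all 9 (background 3.85%) and 25 were above by some amount (16.9%). By the limit 1 was below, and the median was 0.91. Gsn, gelsolin, an actin-severing protein that also circulates in plasma, was at 12.15 against a lowest of 7.59 and a highest of 8.66, which is 11.2-fold above the highest. Dpt, the matrix protein dermatopontin, was at 8.44 against a highest of 6.27, and the proteoglycan Dcn, decorin, was at 11.26 against 8.08, 8.79 and 9.74. Sparc, a collagen-binding protein, was at 11.03 against 8.36, 8.78 and 9.44. The fibrillar collagens were less far apart: Col3a1 was 1.27 above the highest strain array on its brightest probe set and not by the limit on every other, Col1a1 was 0.49 above, and Col1a2 was at 9.70 within the range on 1 probe set and 0.47 above the highest strain array on another. Tnc, tenascin C, a matrix protein of tissue repair and tumours, was at the floor against 6.01, 6.96 and 7.70, at least 2.40-fold lower. A second probe set of Tnc lay within the range, and with the floor at the 40th percentile the gene was inside the limit.

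Milk genes did not all go the same way on the unnamed array. Of 20 genes 7 were at least 1 log2 unit below all 9 strain arrays (background 1.72%), 1 was above, and the median was −0.70. By any amount 9 genes were below, 5 were above and 6 were within the range. Wap was at the floor on the unnamed array and at 10.19, 10.66 and 11.51 on the strain arrays, at least 43.6-fold below the lowest of them, NZB B. Lalba, α-lactalbumin, the whey protein of lactose synthesis, was at 8.21 against 11.38, 11.64 and 12.23. Csn3, κ-casein, was at 11.37 against 12.71, 13.02 and 13.33, and Ltf, lactoferrin, was at 8.22 against a lowest of 10.51. Folr1, a folate receptor of secretory epithelium, was at 6.84 against 9.04 and was lower on both of its probe sets.

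The calcium-sensitive caseins were not among the lower milk genes. Csn1s2a was at 11.55 against 8.88, 9.56 and 10.82, 0.73 above the highest strain array, NZB B. Csn1s1 was at 13.07 against 11.86, 12.07 and 12.95, and Csn2, β-casein, was at 11.93 against 10.32, 11.18 and 11.73. These 3 lay above all 9 strain arrays by less than the limit, while Wap, Lalba and Csn3 lay below all 9 by more than it. Glycam1, a mucin of milk that the vessels of lymph nodes make too, was at 10.51 against 7.58, 8.19 and 9.19. Elf5, a transcription factor of secretory luminal cells, was at 9.18 with a lowest strain value of 10.03, short of the limit.

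Epithelial genes went both ways. Of 28 luminal and basal genes 5 were at least 1 unit above all 9 (background 3.85%), 5 below (1.72%), and the median was −0.08. The lower genes were Spint1, a membrane protease inhibitor (5.43, with a median of 8.69 and a highest of 9.17 on the strain arrays, and 5.96-fold below the lowest), the tight junction claudins Cldn3 (8.30 against a lowest of 10.04), Cldn4 (7.62 against 8.99) and Cldn7 (7.24 against 8.26), and Gata3, the luminal transcription factor (8.76 against 9.85). Gata3 came inside the limit, with a margin of −0.76, when arrays were centred on their medians. The luminal keratins Krt8 (9.97 against 10.81, 11.18 and 11.40) and Krt18 (9.38 against 10.18, 10.50 and 11.05) and the adhesion molecule Epcam (7.67 against 8.53, 9.26 and 9.48) were below all 9 by less than the limit. Krt8, Krt18 and Epcam, defining markers of the labelled tissue's epithelium, were thus above the floor on the unnamed array and lower there than on any strain array. Over the whole list 10 genes were below all 9 by some amount, 6 were above and 12 were within the range.

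Of the genes above, 3 are contractile: Acta2, smooth muscle actin (10.12 against 7.50, 8.02 and 8.59), Myh11, smooth muscle myosin (8.31 against a highest of 6.28), and Cnn1, calponin (7.19 against 5.66), which myoepithelium shares with the muscle of vessel walls. The basal keratins Krt5, Krt14 and Krt15 were at the floor on all 10 arrays and say nothing, and Krt17 and Trp63 were within the range. The other genes above were Foxa1, a partner factor of the oestrogen receptor (7.78 against 4.75, 4.92 and 5.24), and Wnt4, a signal of the progesterone response (6.10 with all 9 at the floor). Itgb4, the integrin of hemidesmosomes, which is on no list, was at 5.85 against 8.45, 9.25 and 9.59. Of 19 keratinocyte genes none passed the limit either way. Sprr1a, a cornified envelope protein, was at the floor within a range of 4.75 to 7.89, and Sfn, an epithelial 14-3-3 protein, was at 6.94 against a lowest of 7.08.

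Cell cycle genes were lower, by small steps in most cases. Of 50 genes 36 were below all 9 strain arrays by some amount, against 16.1% of all genes, and 10 by at least 1 unit, against 1.72%. The median over the list was −0.92, and it was −0.93 to −0.88 under the other scalings. Aurkb, the mitotic kinase aurora B, was at the floor against 6.53, 7.66 and 8.03, at least 3.44-fold lower. Birc5, survivin, its partner, was at 6.37 against 7.86, 8.18 and 9.58, and Rrm2, a subunit of ribonucleotide reductase, was at 6.40 against 7.87, 8.40 and 8.99. Kif20a, a kinesin of cytokinesis, was at 4.83 against a lowest of 6.45, and its other probe set was below by less than the limit. Top2a, the topoisomerase of dividing cells, was at 6.08 against a lowest of 7.11. Mki67, the proliferation antigen, was at 7.24 against 7.85, 8.38 and 8.86, and Pcna, the polymerase clamp, was at 8.51 against a lowest of 8.71, both short of the limit. Cdkn2a, a cell cycle inhibitor, was the only member above, by 0.40. With the floor at the 40th percentile 6 genes passed, Aurkb and Kif20a not among them, and against the 5 strain arrays of the latest title date 16 did. Against those 5, 368 of 9951 probe sets were below by the limit, compared with 182 of 10631 against all 9.

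**Figure D4:**
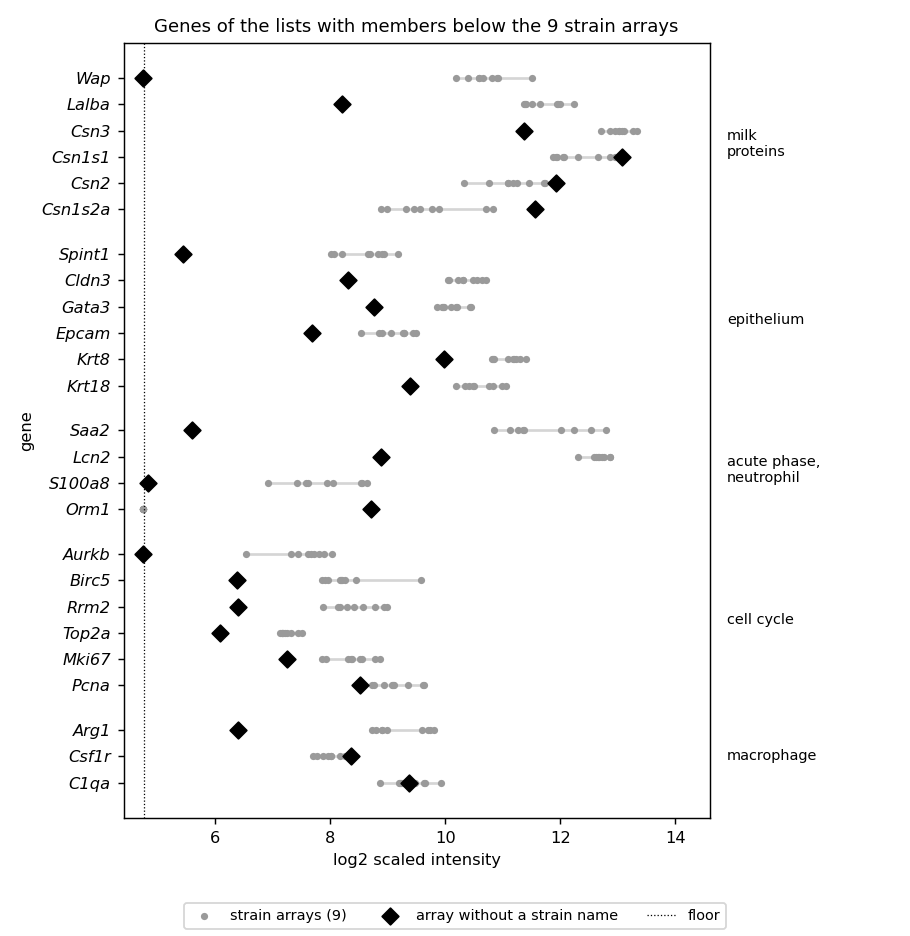
Log2 scaled intensity (horizontal axis) of 25 genes on the array without a strain name (black diamonds) and on each of the 9 strain arrays (grey points, with their range as a grey line); the dotted line is the floor. Wap, Lalba and Saa2 lie far to the left of the strain arrays, the caseins Csn1s1, Csn2 and Csn1s2a just to the right of them, the cell cycle genes shown to the left with margins of −1.78 to −0.20, and Orm1 to the right.

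Several acute phase genes were low on the unnamed array. Of 19 neutrophil and acute phase genes 6 were at least 1 unit below all 9 (background 1.72%) and 1 above. Of the list 11 were within the range, and the median was 0. Among the 6 is Ltf, which is also counted with the lower milk genes. Saa2, serum amyloid A, was at 5.59 against 10.85, 11.37 and 12.80, which is 38.3-fold below the lowest strain array, and its second probe set was lower as well. The Saa2 transcript is nearly the same as that of Saa1, so the 2 may not be separate here. Lcn2, the iron-binding lipocalin of neutrophils and inflamed epithelium, was at 8.87 against 12.31, 12.67 and 12.87 on its brighter probe set, while the other lay within the range. S100a8, a calcium-binding protein of neutrophils, was at 4.83 against a lowest of 6.92. The gene above was Orm1, the plasma protein orosomucoid, at 8.71 with all 9 at the floor. Ngp and Mmp9, of neutrophil granules, were at the floor on all 10 arrays and show no difference, and Mpo, myeloperoxidase, was at the floor on the unnamed array and on the median strain array.

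Glycolysis and hypoxia genes also went both ways. Of 25 genes 3 were at least 1 unit above all 9 (background 3.85%) and 3 below (1.72%). The median was −0.07, or 0.17 with median centring. The genes above were Pfkm, the muscle phosphofructokinase (10.38 against 7.46, 7.84 and 8.44), Hk2, the hexokinase of muscle and fat (9.48 against a highest of 7.58), and Bnip3, a mitophagy receptor (8.43 against 7.15). Those below were Car12, a membrane carbonic anhydrase of epithelia (4.96 against 8.71, 9.10 and 9.36), Aldoc, the brain form of aldolase (7.57 against a lowest of 9.49), and Slc2a1, the widespread glucose transporter. Slc2a1 was at the floor against 6.14, and it was inside the limit with the floor at the 40th percentile. The shared enzymes Pkm, Pgk1 and Ldha lay within the strain range.

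Genes of the salivary and lacrimal glands were not raised on the unnamed array. Of 21 salivary and lacrimal genes none was above the range of the strain arrays, and 2 were below by the limit (background 1.72%). Those genes were Car6, the secreted carbonic anhydrase of saliva, at the floor against 8.16, 9.89 and 11.26, and Scgb1b27, a secretoglobin of tears and saliva, at the floor against 7.36, 9.89 and 11.19. The strain arrays differed widely here, with a list median of 2.93 on FVBn B and −0.30 on NZB B, and −0.36 on the unnamed array. Bpifa2, the parotid secretory protein, was at 5.35 and ranged from 5.38 to 13.33 on the strain arrays.

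The remaining lists had few members beyond the strain arrays. Of 17 Schwann cell and nerve genes 1 was above and 1 below: Pmp22, a protein of peripheral myelin that fibroblasts also make (8.50 against a highest of 6.88), and Sox10, a factor of neural crest and mammary epithelial cells (9.27 against a lowest of 10.43). Sox10 was inside the limit with 2 other scalings. Without FVBn B, ILn A, MOLF A or NZB B, each left out alone, 2 genes of this list were above. Of 34 immediate early genes 1 passed, Ier3, at 7.26 against 9.13, 10.29 and 10.36, and Fos was at 7.43 against a lowest of 7.87. Without LP B 1 immediate early gene was above. Of 37 heat shock genes none passed, and 1 was above without NZB B. Their 2 members farthest from the strain median were the small heat shock protein Cryab (7.89 against a highest of 6.92, its other probe set lying within the range) and the collagen chaperone Serpinh1 (10.05 against 9.64). Of 42 genes associated with metastasis 3 were above (background 3.85%) and 1, Tnc, was below (1.72%). The 3 were the chemokine Cxcl12 (8.18 against 5.39, 6.13 and 6.51, with all 3 of its probe sets past the limit), Id3, an inhibitor of helix-loop-helix factors (8.24 against a highest of 6.61), and Twist1, a mesenchymal factor (6.21 against 5.07). Twist1 was at the floor on 8 strain arrays, and with the floor at the 40th percentile it was inside the limit.

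**Figure D5:**
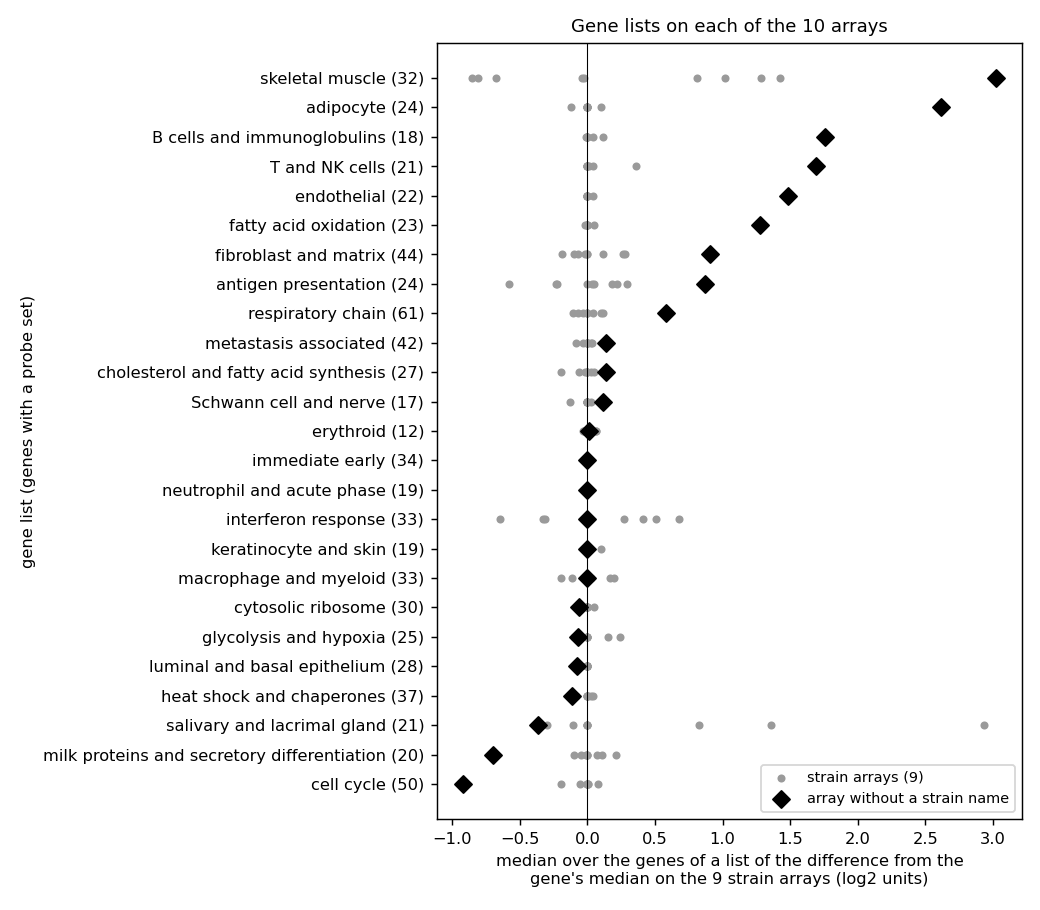
Median over the genes of each list of the difference from the gene's median on the 9 strain arrays (horizontal axis, log2 units), for the array without a strain name (black diamonds) and each strain array (grey points). The skeletal muscle, adipocyte, B cell, T cell, endothelial and fatty acid oxidation lists lie 1.28 to 3.02 units to the right on the unnamed array, and the cell cycle list lies at −0.92.

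Several of these groups were high or low together on the 1 array, and their parts in each other's values were not tested. Against the 7 strain arrays without MOLF A and NZB B, at least 1 unit above were 20 of 24 adipocyte, 25 of 32 muscle and 15 of 21 T and NK cell genes. So were 9 of 18 B cell, 15 of 22 endothelial, 12 of 23 fatty acid oxidation and 11 of 44 matrix genes. At least 1 unit below those 7 were 14 of 50 cell cycle, 7 of 20 milk and 6 of 19 neutrophil and acute phase genes. Of 10130 probe sets 539 were above those 7 and 306 below, against 437 and 182 of 10631 with all 9. Fewer strain arrays have a narrower range, so these counts can hardly be smaller than with all 9. Among the strain arrays FVBn B was the lowest on the muscle list (−0.86) and on the adipocyte list (−0.12). LP A was the highest on the muscle list (1.42), and LP B, at 1.29 on the muscle list, was the highest on the adipocyte list (0.10). The other 7 strain arrays had an adipocyte median of 0. Only 15 of the 24 adipocyte genes were above the floor on all 9. A gene whose strain median is at the floor has a difference of 0 on every strain array at the floor. These medians of 0 are therefore no measure of how alike the strain arrays were. Genes with the largest margins that belong to no list included, above, Cdo1, the cysteine dioxygenase of liver and fat (11.12 against 6.09, 6.55 and 7.05), Aoc3, an amine oxidase of fat and vessels (10.25 against a highest of 6.63), Art3, an ADP-ribosyltransferase family member (8.72 against 5.09), Cmbl, a hydrolase (12.0-fold above the highest, at 5.41), and the glutamine transporter Slc1a5 (9.33 against 5.89). Below were Chil1, a chitinase-like protein (5.94 against 9.24, 10.11 and 10.60), Npnt, a ligand of integrins in the basement membrane (5.39 against a lowest of 8.22), Plet1, an epithelial surface protein (9.24 against 11.71), and Pik3r1, the regulatory subunit of PI3 kinase, to which middle T binds (6.12 against 8.57). Arfgap3, a coat protein regulator of the Golgi, and Aass, a lysine-degrading enzyme, were also lower, at 4.78 against a lowest of 7.30 and at 4.79 against 7.18. At the floor on the unnamed array were the receptor kinase Epha2 (lowest strain value 7.02), the Wnt co-receptor Lrp5 (6.72) and the quinone reductase Nqo1 (6.63, lower on both probe sets). Of the 318 genes above, 123 were on a list and 195 on none, and of the 142 below, 41 were on a list and 101 on none.

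The sex given in the labels was checked by 4 genes, chosen after values had been seen. Xist, the RNA of the inactive X chromosome, was at 5.93 on the unnamed array and at 7.48, 8.44 and 9.54 on the lowest, median and highest strain arrays. It was thus above the floor, and 2.92-fold below the lowest strain array, MOLF B. The Y-linked Uty and Eif2s3y were at the floor on all 10 arrays, and Kdm5d was at the floor on the unnamed array and above it on MOLF A (5.65) and NZB B (5.23).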

How the data were processed

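Total RNA of 10 samples was measured on 1 array each. The authors deposited a linear intensity value for every probe set of an array; how probes were summarised was not given in the sources used here. Groups came from titles. Of 12488 probe sets, 66 controls were left out. The 9 strain arrays were quantile normalized on the log2 scale with numpy 2.4.6 and pandas 2.3.3 in Python 3.11.15, the unnamed array was set to their distribution, and values under the 30th percentile (intensity 26.8) were raised to it. Kept were 10631 probe sets above the floor on at least 1 of 10 arrays. By the platform annotation 10855 probe sets had 1 symbol, 396 had several and 1237 had none, and 10839 symbols were matched through Entrez identifiers to RefSeq's gene table of GRCm38.p6, used for names. Each of 8251 genes is represented by its probe set with the highest mean over the 10 arrays, without a filter, so that no gene enters through the unnamed array alone.

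A feature is counted as above or below when it lies at least 1 log2 unit beyond the range of all 9 strain arrays. No test was run, and the number of arrays limits the precision. The named genes are the 12 each way with the largest margin, up to 6 each way with 1 side at the floor, 5 markers, and up to 4 each way from each of 25 lists, or 2 members of a list with none. Other members and genes on no list were added after their values had been seen. The members and lists were chosen with earlier results of these data known. The counting was checked on simulated arrays with large changes put into probe sets well above the floor. That check does not cover calls near the limit or at the floor. Alternatives were 21 settings of scaling, floor, filter, margin, strain arrays and probe set choice.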

Additional observations from a re-analysis of the deposited data

How the results depend on the processing

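No paired analysis was possible because no result comes from a test. With each strain array left out in turn, 441 to 476 probe sets were above the strain arrays and 184 to 229 below. Other scalings gave 431 to 442 above and 154 to 182 below, and a floor at the 20th or the 40th percentile gave 468 and 217 or 393 and 129. The counts were 1813 above and 1714 below by any amount, 120 and 34 by at least 2 log2 units, 539 and 306 without MOLF A and NZB B, and 605 and 368 against the 5 arrays of the latest title date. A filter of at least 2 strain arrays above the floor gave 369 and 182. Of the calls 70.6% were above, 51.4% by any amount and 77.9% by 2 units. The adipocyte median was 3.27 with the floor at the 20th percentile, 3.10 without MOLF A and NZB B and 3.07 against the 5 arrays. The T and NK cell median was 2.04 and 1.06 with the floor at the 20th and 40th percentile. The B cell median was 1.16 with the floor at the 40th percentile and 0.80 with the median over a gene's probe sets. The neutrophil and acute phase median was −1.09 under the filter. Why these moved was not tested. Of 104 genes named by the rule above and beyond the limit, 84 stayed beyond it in all 18 settings in which they were followed. Genes named only because their values had been seen are not among the 104. Leaving out any 1 strain array lost none of the 104. Fewer strain arrays can only narrow the range, apart from shifts in scaling, so such settings could hardly lose a call. The filter removed 11 of the 104, at the floor on at least 8 strain arrays. Values under the floor, near 30% on every array, give bounds only.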

Other observations

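Some genes on no list lay beyond the strain arrays together with relatives, and they were picked after their values had been seen. Cavin1, Cavin2 and Cavin3, coat proteins of caveolae, were above all 9 strain arrays. They were at 10.41, 8.43 and 9.16 against a highest of 7.91, 6.29 and 7.94. A second probe set of Cavin1 lay within the range. The lymphocyte GTPases Gimap4 (9.40 against a highest of 6.46) and Gimap1 (7.22 against 4.92) were above too. Among the genes below, the lipopolysaccharide binding protein Lbp, the plasma glycoprotein Lrg1 and ceruloplasmin, Cp, which are acute phase proteins, had margins of −1.95 to −1.41 from the lowest strain array. Pigr, the receptor that carries antibodies across epithelium, had a margin of −1.64. The serpin Serpina3n, also an acute phase protein, was above the highest strain array by 1.62.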
